A study of Mus musculus with 14 samples.

Results

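Integrins and laminins, the receptors and the ligands by which epithelial cells hold on to their basement membrane, were followed through mouse salivary gland organoids and the glands they came from. The members were chosen by name: 25 integrin subunits and 10 laminin chains, 35 of the 45777 genes in the count tables. Integrins are pairs of an α and a β subunit that span the plasma membrane and link the matrix outside to keratin or actin filaments inside. Laminins are cross-shaped trimers of an α, a β and a γ chain that polymerise under epithelia, muscle, nerve and vessels. In glands such as these, the laminin-binding integrins α6β4 and α3β1 anchor basal duct cells and myoepithelial cells, and α6β4 with plectin and collagen XVII forms the hemidesmosome.

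The study grew organoids from parotid (PG), sublingual (SLG) and submandibular (SMG) glands of wild-type female C57BL/6 mice aged 6 to 8 weeks and set them beside whole gland tissue. There were 14 RNA-seq libraries in 7 groups of 2: PG, SLG and SMG organoids in differentiation accelerating media (DAM), SMG organoids in growth and expansion media (GEM), and PG, SLG and SMG tissue. GEM held the ROCK inhibitor Y-27632 at 10 μM, and DAM held no Y-27632 and the γ-secretase inhibitor DAPT at 5 μM. By the legends of the study, DAM organoids had 9 days in GEM and then 3 days in DAM, and other statements of its timing differ. All organoids shared neuregulin 1, R-spondin 1, noggin, FGF1, FGF7 and the TGFβ receptor inhibitor A83-01, and they grew inside Matrigel, a gel that is itself largely laminin, after collagenase and TrypLE had freed the cells. A legend of the study calls the 2 organoid samples of a group biologically independent, without saying which mice or cultures they came from, and says nothing of the kind for tissue. The p-values below measure the spread between these samples, which in tissue may be technical. Tests and values by gland use DAM organoids unless GEM is named, while ranges over organoids take in every organoid library, GEM included (8 for counts and CPM, 6 for TPM).

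Libraries held between 56383651 and 71367044 counts. The 35 members took 0.398% to 0.576% of all counts in organoids and 0.0218% to 0.0686% in tissue, where 10 genes alone took 47.0% to 80.2% of the counts. Levels are given as CPM, counts scaled to a common library size by trimmed means over the 14323 genes counted in every library. The limit that a count of 0 allows, 3 counts, was worth 0.0368 to 0.205 CPM on this scale. Epithelial markers were present throughout, and basal duct markers such as Krt5 and Trp63 summed to 3851 to 8574 CPM in organoids and 77.6 to 149.9 CPM in tissue. Summed acinar markers stood at 526 to 1280 CPM in organoids and 10540 to 69210 CPM in tissue. The 7 fibroblast markers summed to 0.754 to 1.74 CPM in organoids and 202 to 686 CPM in tissue, and the 10 immune cell markers to 1.41 to 8.83 and 56.8 to 122 CPM. Endothelial markers summed to 3.93 to 6.88 CPM in organoids and 46.04 to 158 CPM in tissue. Ptprc, the leukocyte common antigen, had no count in any organoid library. In bulk RNA, fewer cells of a type and less RNA per cell cannot be told apart, and this holds for every difference below. Replicate 2 of PG tissue alone carried skeletal muscle RNA, with marker sums of 6.72 to 936 CPM over the PG tissue libraries.

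Within a library, on the deposited scale of TPM (transcripts scaled for their length and the library total), organoids used a narrow set of these genes. Lama3 and Lama5 together made up nearly all laminin α chain RNA in organoids. Lama3 took 49.7% to 56.4% of the summed α chain TPM over 6 organoid libraries and 11.7% to 34.1% over 6 tissue libraries. Lama5 took 41.0% to 47.4% in organoids and 31.1% to 60.0% in tissue. Lama4, a chain of vessel walls, held 2.14% to 4.23% in organoids and 10.5% to 23.8% in tissue. Lama2, a chain of muscle and nerve, was listed at 0 in all 6 organoid libraries and held 2.04% to 20.4% in tissue. Among the β chains, Lamb3, the partner of the α3 chain in epithelia, held 75.1% to 83.8% in organoids and 30.5% to 52.7% in tissue. Lamb2, known from neuromuscular and kidney basement membranes, held 7.23% to 13.7% in organoids and 24.9% to 50.9% in tissue. For Lama3, Lama4, Lamb2 and Lamb3 the organoid and tissue ranges did not overlap. These shares need no scaling between libraries and were described without a test. The same count for the α partners of Itgb1 gave Itga3 26.6% to 46.6% in organoids and 7.84% to 22.4% in tissue. Itga6 took 32.4% to 54.9% in organoids and 40.3% to 63.8% in tissue. In every tissue library Itga6 was the more abundant of the pair, with Itga3 at 0.123 to 0.557 of the Itga6 TPM. In organoids the ratio ran between 0.484 and 1.44 and was above 1 in SMG organoids.

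**Figure D1:**
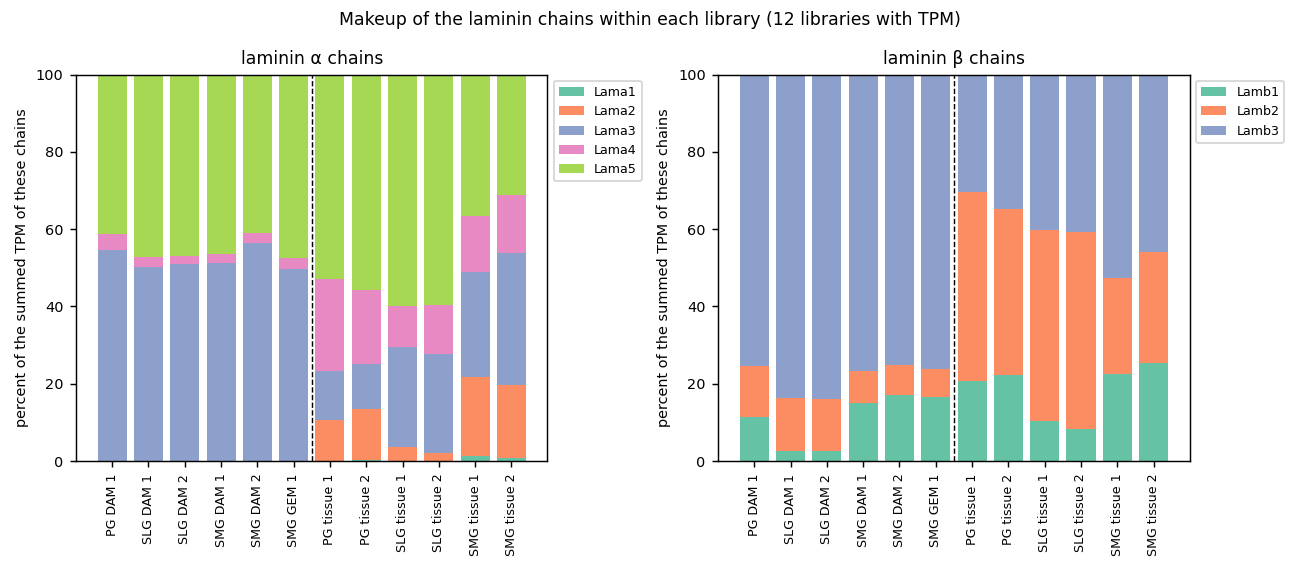
Makeup of the laminin α chains (left) and β chains (right) in each of the 12 libraries with TPM, as percent of the summed TPM of the chains drawn, organoids left of the dashed line and tissue right of it. Lama3 and Lamb3 take larger shares in organoids (up to 56.4% and 83.8%), and Lama2, Lama4 and Lamb2 larger shares in tissue.

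The comparison of organoids with the gland of origin asked how near the cultures stood to the tissue. Of the 35 members, 26 had a count in every library and were tested, and a member was called when the edgeR adjusted p was under 0.05 and the change exceeded 1 on the log2 scale. In PG organoids 15 members were higher and 5 lower than in PG tissue, against 25.1% and 22.1% of the 14459 tested genes (47.2% in either direction). In SLG organoids 11 were higher and 8 lower than in SLG tissue, against 20.6% and 18.1% of genes (38.6%). In SMG organoids 15 were higher and 4 lower than in SMG tissue, against 22.9% and 23.2% (46.1%). The median log2 fold change of the members was 1.70 in PG, 0.95 in SLG and 1.63 in SMG, beside 0.08, 0.03 and 0.02 over all tested genes. A total of 11 members were higher in the organoids of all 3 glands: Itga3, Itga6, Itgb1, Itgb4, Itga2, Itga8, Itgav, Itgb8, Lama3, Lamb3 and Lamc1, against 11.8% of the tested genes higher in all 3. In each of these 11 every organoid library lay above the tissue libraries of the same gland. That follows largely from their being called, and it was not counted over all genes. Itga7 and Itgb2 were lower in all 3 (11.0% of genes), Itga2b, Itgb6 and Itgam were called in opposite directions in different glands, and Itgb5 and Lamb2 were called in none. These counts and medians cover 26 members, and the filter had removed mostly members scarce in organoids. With no filter all 35 members were tested. Their medians were then 0.40 in PG, −0.08 in SLG and 0.45 in SMG, beside 0 over all genes. Calls were 15 higher and 12 lower in PG, 13 and 14 in SLG, and 17 and 13 in SMG. Of all 27235 genes, 5209 and 4822 were called in PG, 4002 and 4445 in SLG, and 4738 and 5182 in SMG.

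The size of these folds depended on the scale set between organoid and tissue libraries. Scaling by the total of the tested genes moved the median of all genes to 0.71 in PG, 0.72 in SLG and 0.53 in SMG, and limma on log2(TPM + 1) moved it to 2.40, 1.71 and 2.54. The share of calls over all genes that were higher in organoids was 53.2% in PG, 53.3% in SLG and 49.6% in SMG on the common scale, 74.5%, 79.9% and 68.5% with totals, and 97.1%, 95.7% and 97.0% with TPM. Relative to the shifted median, the members' median stood higher by 1.31, 1.02 and 1.67 with TPM, where 19 members had the mean of 1 TPM that this fit required. Itga7, Itgb2, Itgax, Lama2 and Lamc3 fell short of that mean, so this fit kept members that stood high in organoids. Its excess therefore cannot show whether the members rose as a group.

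The laminin-binding integrins, other than Itga7, rose in the organoids of every gland. Itga3, the α3 subunit, had 384 and 347 CPM in PG, 180.3 and 162 CPM in SLG and 525 and 430 CPM in SMG organoids. Tissue libraries had 38.8 and 39.6 CPM in PG, 25.7 and 28.1 CPM in SLG and 18.5 and 20.7 CPM in SMG. Every organoid library stood above every tissue library. The gain was 9.65-fold in PG (log2 fold change 3.27 ± 0.10, edgeR adjusted p = 3.33e-14) and 24.3-fold in SMG (log2 fold change 4.60 ± 0.11, edgeR adjusted p = 1.55e-15). It was 6.61-fold in SLG (log2 fold change 2.73 ± 0.10, edgeR adjusted p = 3.05e-13). Itgb4, the β4 subunit whose long tail binds plectin, had 497 and 470.3 CPM in PG, 501 and 504 CPM in SLG and 669.7 and 551 CPM in SMG organoids. The glands themselves had 125 and 129 CPM in PG, 63.4 and 66.9 CPM in SLG and 72.7 and 65.9 CPM in SMG. Its rise was 3.92-fold in PG, 8.03-fold in SLG and 8.76-fold in SMG, and the groups did not overlap. Itga6, the α6 partner of β4 and β1, ranged over 403 to 683 CPM in organoids and 88.5 to 184 CPM in tissue. It rose 5.61-fold in PG, 2.60-fold in SLG and 2.85-fold in SMG. Itgb1, the β subunit shared by most α subunits, had 1071 and 1077 CPM in PG, 814 and 799.8 CPM in SLG and 794 and 856 CPM in SMG organoids. Its tissue levels were 144 and 141 CPM in PG, 322 and 326 CPM in SLG and 208 and 207 CPM in SMG. The rise was 7.80-fold in PG, 2.59-fold in SLG and 3.95-fold in SMG. Per length, Itgb1 was the highest member in all 12 libraries with TPM, at 350.1 to 549 TPM in organoids and 9.58 to 48.6 TPM in tissue. Basal duct marker sums were higher in organoids of every gland too, and so were those of luminal duct and epithelial markers. Luminal duct markers summed to 2841 to 7225 CPM in organoids and 339 to 1112 CPM in tissue. Epithelial markers summed to 3707 to 5739 CPM in organoids and 1279 to 2468 CPM in tissue. The part of these cell types in the rises was not tested. Itgb4 overlaps Galk1. Organoid libraries held 126 to 1917 counts of Galk1 beside 31525 to 63504 of Itgb4, and tissue libraries 321 to 1339 beside 963 to 2722.

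Itga7, the α7 subunit of muscle, went the other way. It had 0.930 and 0.701 CPM in PG, 0.196 and 0.153 CPM in SLG and 1.08 and 0.505 CPM in SMG organoids. In tissue it had 5.07 and 6.78 CPM in PG, 1.21 and 0.590 CPM in SLG and 1.92 and 3.22 CPM in SMG. It was lower in organoids by 7.003-fold in PG (log2 fold change −2.81 ± 0.40, edgeR adjusted p = 5.7e-06), 4.76-fold in SLG and 3.23-fold in SMG. The PG tissue library with skeletal muscle RNA was the higher of its pair, and without it the log2 fold change in PG was −2.59, still called. Without replicate 1 of SMG organoids the SMG value was −2.31, and −1.69 with all libraries.

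**Figure D2:**
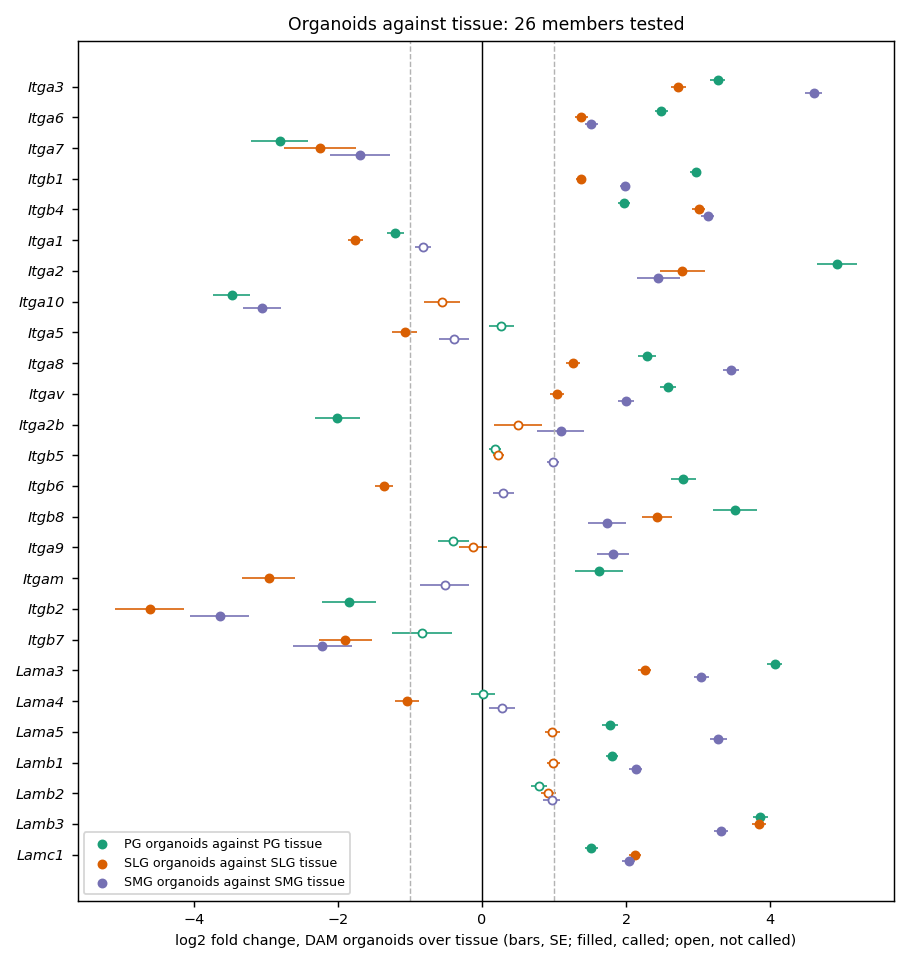
Log2 fold change of DAM organoids over the tissue of the same gland for the 26 tested members, with SE bars, filled where called (edgeR adjusted p under 0.05 and a change over 1 on the log2 scale) and open where not. Itga3, Itgb4, Lama3 and Lamb3 lie right of 1 for all 3 glands, Itga7 and Itgb2 left of −1, and Itgb6 and Itgam on both sides of 0.

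Laminin chains of the epithelial basement membrane rose with these receptors. Lamb3 had 324 and 303 CPM in PG, 464 and 450.1 CPM in SLG and 401 and 350.5 CPM in SMG organoids. Tissue libraries had 21.7 and 22.8 CPM in PG, 31.3 and 34.9 CPM in SLG and 41.2 and 33.5 CPM in SMG. That was 14.6-fold in PG (log2 fold change 3.86 ± 0.10, edgeR adjusted p = 4.66e-15), 14.3-fold in SLG (log2 fold change 3.84 ± 0.10, edgeR adjusted p = 4.41e-15) and 9.98-fold in SMG (log2 fold change 3.32 ± 0.10, edgeR adjusted p = 1.72e-14), with no overlap in any gland. Lama3 had 238 and 202 CPM in PG, 136 and 140 CPM in SLG and 198 and 190.2 CPM in SMG organoids. The glands themselves had 14.6 and 12.7 CPM in PG, 28.3 and 31.7 CPM in SLG and 24.4 and 22.4 CPM in SMG. The rise was 16.7-fold in PG, 4.78-fold in SLG and 8.24-fold in SMG. Lama5, the α chain of mature epithelial basement membranes, had 227 and 188 CPM in PG, 256 and 255 CPM in SLG and 364 and 281 CPM in SMG organoids. Its tissue levels were 62.6 and 62.98 CPM in PG, 129.7 and 141 CPM in SLG and 34.04 and 31.8 CPM in SMG. It rose 9.73-fold in SMG and 3.42-fold in PG, and in SLG its 1.96-fold difference lay just under the size required. Lamc1, the γ1 chain, had 116 and 106 CPM in PG, 117 and 117 CPM in SLG and 135 and 128 CPM in SMG organoids. In tissue it had 37.8 and 42.4 CPM in PG, 26.5 and 29.1 CPM in SLG and 34.2 and 29.6 CPM in SMG. It rose by 2.86-fold in PG, 4.36-fold in SLG and 4.10-fold in SMG. Lamb2 had 51.1 to 106 CPM in organoids and 27.1 to 60.6 CPM in tissue. Its log2 fold changes were 0.79 in PG, 0.92 in SLG and 0.97 in SMG and passed the p threshold but not the fold. Lamb1, the β1 chain, had 70.4 and 71.2 CPM in PG, 21.2 and 19.8 CPM in SLG and 113 and 113 CPM in SMG organoids. Its tissue levels were 10.1 to 26.4 CPM. It rose in PG and SMG organoids (1.81 ± 0.08 and 2.13 ± 0.09) and stood at 0.99 ± 0.09, just under the fold threshold, in SLG. Lama4 had 12.4 and 13.3 CPM in PG, 6.95 and 6.19 CPM in SLG and 9.21 and 9.50 CPM in SMG organoids. Tissue libraries had 14.96 and 11.3 CPM in PG, 12.1 and 15.9 CPM in SLG and 7.20 and 8.22 CPM in SMG. It was lower in SLG organoids (log2 fold change −1.04 ± 0.17, edgeR adjusted p = 2.65e-05). This call turned to 0.56 with log2(TPM + 1), below the all-gene shift, and was lost at −0.81 without replicate 2 of SLG tissue.

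The promoters of Itga3 and Lamb3, which had the largest rises held in common by the organoids of all 3 glands among members with a window in the RefSeq promoter table (GRCm38.p6), are shown from 250 bases before to 50 bases after the annotated start. Both strands were searched for 3 motifs that do not overlap here, and capitals mark a match. The first was the AP-1 motif, TGANTCA. The second was the GC box, GGGCGG. The third was the TATA box, TATAAA. The Itga3 window is chr11:95076665-95076964 on the minus strand and the Lamb3 window is chr1:193301744-193302043 on the plus strand, and each gene has a further start in the table that is not shown.
Itga3: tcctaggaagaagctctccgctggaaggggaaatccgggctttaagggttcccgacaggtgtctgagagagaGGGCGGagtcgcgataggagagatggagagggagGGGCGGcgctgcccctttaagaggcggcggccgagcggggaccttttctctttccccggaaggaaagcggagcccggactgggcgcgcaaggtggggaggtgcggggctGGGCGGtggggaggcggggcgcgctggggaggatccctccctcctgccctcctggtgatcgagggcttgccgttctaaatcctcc
Lamb3: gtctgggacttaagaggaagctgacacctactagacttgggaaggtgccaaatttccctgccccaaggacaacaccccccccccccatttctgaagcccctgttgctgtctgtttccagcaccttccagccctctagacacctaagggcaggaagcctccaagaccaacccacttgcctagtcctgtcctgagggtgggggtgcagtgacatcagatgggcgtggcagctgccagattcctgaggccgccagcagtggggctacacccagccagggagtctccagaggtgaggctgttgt
The Itga3 window held 3 matches to the GC box and the Lamb3 window no match to any of the 3 motifs. Over the 32851 windows of this length in the table, 35.7% held the GC box, 7.81% the AP-1 motif and 13.6% the TATA box. Of the 26 windows of 23 members in the table, 12 held the GC box, 3 the AP-1 motif and 0 the TATA box.

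**Figure D3:**
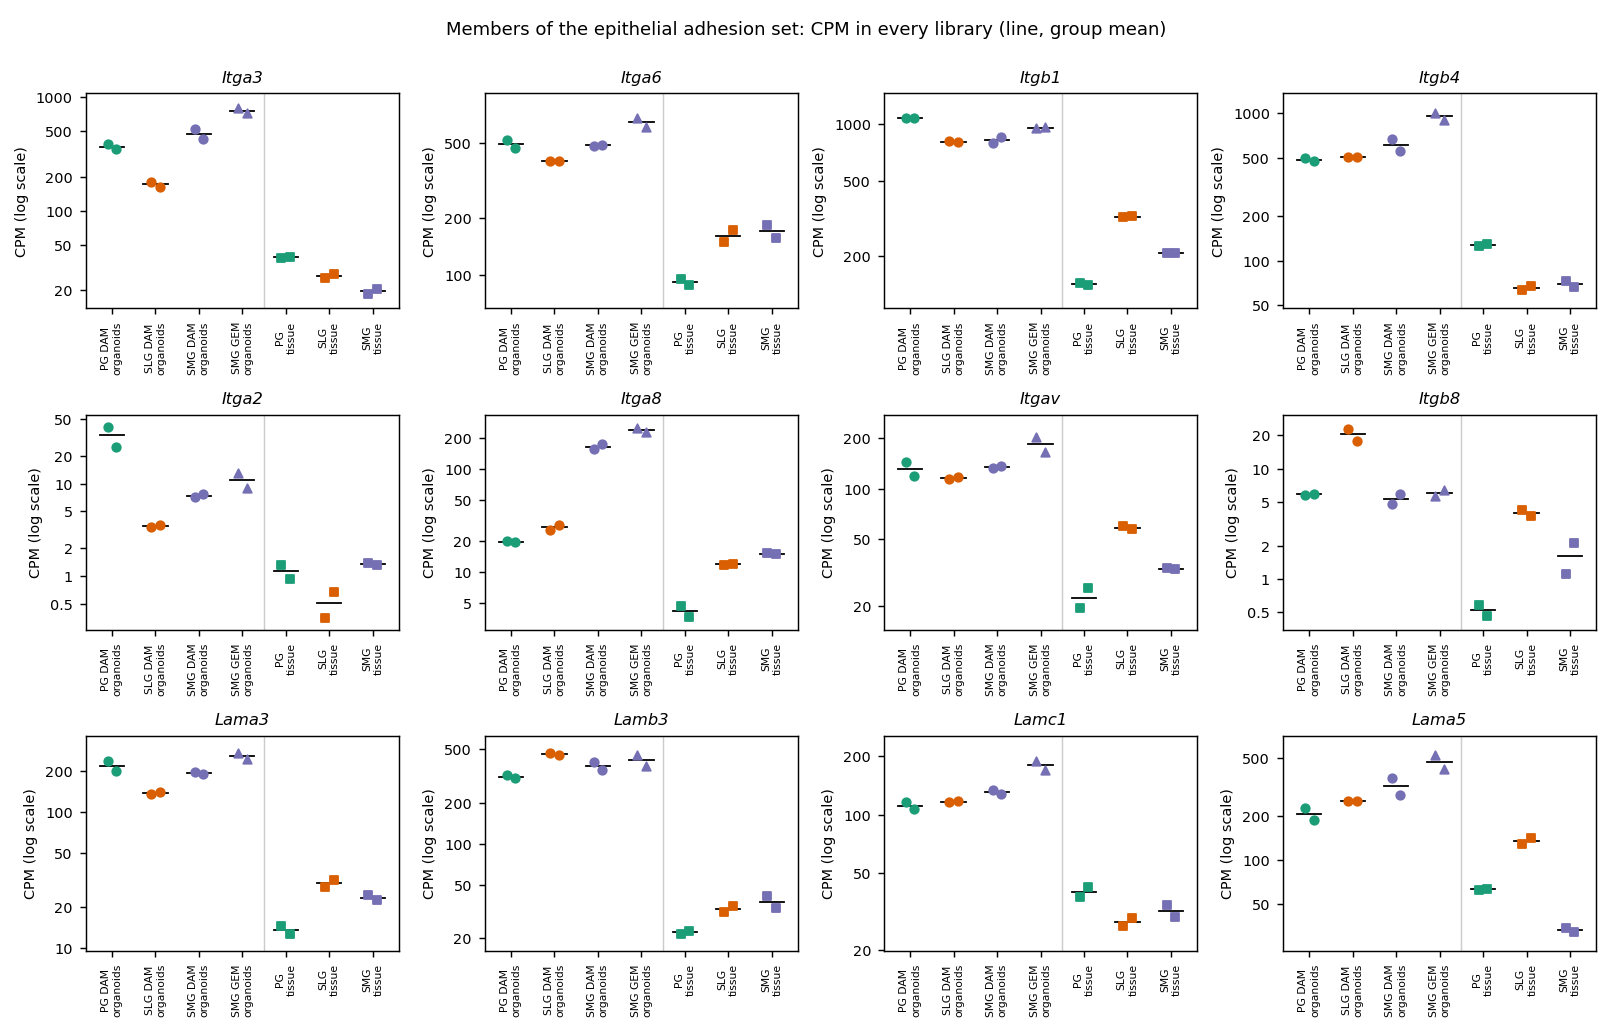
CPM (log scale) in each library of the 11 members called higher in the organoids of all 3 glands, and of Lama5, with circles for DAM organoids, triangles for GEM organoids, squares for tissue and a line at each group mean. Each organoid group of a gland lies above the tissue of the same gland in all 12 panels.

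Collagen-binding integrins did not move as 1 group. Itga2, the α2 subunit, had 41.4 and 25.02 CPM in PG, 3.35 and 3.60 CPM in SLG and 7.20 and 7.62 CPM in SMG organoids. The glands themselves had 1.31 and 0.925 CPM in PG, 0.351 and 0.663 CPM in SLG and 1.39 and 1.30 CPM in SMG. The rise was 30.4-fold in PG (log2 fold change 4.93 ± 0.28, edgeR adjusted p = 6.05e-11), 6.86-fold in SLG and 5.45-fold in SMG. Without replicate 2 of SLG tissue the log2 fold change in SLG was 3.37, and 2.78 with all libraries. Itga1, the α1 subunit of stromal and vascular cells, had 7.32 and 7.07 CPM in PG, 10.2 and 9.55 CPM in SLG and 10.8 and 11.97 CPM in SMG organoids. Its tissue levels were 17.0 and 17.3 CPM in PG, 34.2 and 35.5 CPM in SLG and 19.5 and 20.5 CPM in SMG. It was lower in PG (log2 fold change −1.20 ± 0.11, edgeR adjusted p = 3.75e-08) and SLG organoids (log2 fold change −1.76 ± 0.11, edgeR adjusted p = 1.45e-10), and turned to 0.97 and 0.12 with log2(TPM + 1), each below the all-gene shift of that fit. Itga1 shares its span with Pelo, whose counts (779 to 1052 per organoid library, 305 to 1107 per tissue library) were of the same order as those of Itga1. Itga10, the α10 subunit known from cartilage, had 1.23 and 1.64 CPM in PG, 1.89 and 2.01 CPM in SLG and 1.06 and 0.884 CPM in SMG organoids. In tissue it had 18.4 and 14.6 CPM in PG, 3.73 and 2.29 CPM in SLG and 8.83 and 7.26 CPM in SMG. It was lower by 11.1-fold in PG (log2 fold change −3.48 ± 0.25, edgeR adjusted p = 1.5e-09) and 8.30-fold in SMG, while SLG had −0.55 ± 0.25 and was not called. Itga11, a fibroblast collagen receptor, had no count in any organoid library and 0 to 16 counts in tissue. Fibroblast marker sums were lower in organoids of every gland too, and their part in these differences was not tested.

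Among integrins that read the RGD motif of fibronectin, vitronectin and nephronectin, Itgav, Itgb8 and Itga8 rose in organoids of all 3 glands. Itgav, the αv subunit, had 143 and 119 CPM in PG, 115 and 117 CPM in SLG and 133 and 136 CPM in SMG organoids. Tissue libraries had 19.4 and 25.7 CPM in PG, 59.9 and 57.4 CPM in SLG and 33.9 and 33.1 CPM in SMG. Log2 fold changes were 2.58 ± 0.11 in PG, 1.04 ± 0.10 in SLG and 1.998 ± 0.11 in SMG. The SLG value lay at the threshold and was 0.98, not called, with DESeq2 and 0.98, not called, without replicate 2 of SLG organoids. Itgb8, whose pairing with αv binds latent TGFβ, had 5.78 and 5.88 CPM in PG, 22.9 and 17.9 CPM in SLG and 4.74 and 5.88 CPM in SMG organoids. The glands themselves had 0.585 and 0.462 CPM in PG, 4.21 and 3.69 CPM in SLG and 1.10 and 2.12 CPM in SMG. The rise was 11.4-fold in PG, 5.39-fold in SLG and 3.33-fold in SMG. Itgb6, the other latent TGFβ receptor of epithelia, had 11.6 and 10.5 CPM in PG, 9.93 and 9.51 CPM in SLG and 8.56 and 7.82 CPM in SMG organoids, against 1.54 to 27.1 CPM in tissue. It was higher in PG organoids (log2 fold change 2.79 ± 0.17, edgeR adjusted p = 1.84e-10), lower in SLG organoids (log2 fold change −1.36 ± 0.13, edgeR adjusted p = 4.88e-08) and 0.29 ± 0.15 in SMG, where it was not called. The SLG value turned to 0.44 with log2(TPM + 1). Itgb5 ranged over 69.4 to 154 CPM in organoids and 65.1 to 96.2 CPM in tissue and took 78.1% to 93.2% of the summed TPM of the αv partners Itgb3, Itgb5, Itgb6 and Itgb8 in organoids and 78.1% to 97.2% in tissue. Itga5, the fibronectin receptor, had 12.9 and 11.2 CPM in PG, 6.17 and 5.97 CPM in SLG and 3.72 and 2.78 CPM in SMG organoids. Its tissue levels were 11.1 and 9.50 CPM in PG, 12.3 and 14.2 CPM in SLG and 4.82 and 3.63 CPM in SMG. It was lower in SLG organoids (log2 fold change −1.07 ± 0.17, edgeR adjusted p = 2.81e-05), a call that was lost without replicate 2 of SLG tissue (−0.95) and turned to 0.59 with log2(TPM + 1). Itga2b, the αIIb subunit of platelets, was lower in PG organoids (log2 fold change −2.01 ± 0.31, edgeR adjusted p = 1.79e-05) and higher in SMG organoids (log2 fold change 1.09 ± 0.33, edgeR adjusted p = 0.00651), at levels of 0.772 to 3.35 CPM in organoids and 0.540 to 3.70 CPM in tissue. In SMG it lost its call without replicate 1 of SMG organoids (0.99) or replicate 2 of SMG tissue (0.97). Of the 5 platelet markers, Gp6 was at 0 in every library and the summed level of 8.27 to 595 CPM in organoids and 1.63 to 6.24 CPM in tissue was mostly Ppbp in organoids. The part of platelets was not tested.

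Several integrins of leukocytes, and the laminin chains Lama2 and Lamc3, were scarce or absent in organoids. Itgax, the αX subunit of dendritic cells, had no count in any of the 8 organoid libraries and 103 to 143 counts in tissue, 3.19 to 8.31 CPM. Set against the floor of 3 counts per library, it was at least 134-fold lower in PG, 96.1-fold lower in SLG and 194-fold lower in SMG organoids. Itgal, the αL subunit of lymphocytes, had 0 to 22 counts per organoid library and 29 to 92 per tissue library, and Itga4, the α4 subunit that binds VCAM1, had 0 to 7 in organoids and 21 to 68 in tissue. Its relative Itga9 did not share this pattern: it was higher in SMG organoids than in SMG tissue (log2 fold change 1.82 ± 0.22, edgeR adjusted p = 1.25e-06) and differed by −0.40 in PG and −0.13 in SLG, which were not called. Itga9 overlaps Gm10157, whose counts were 123 to 445 per organoid library and 76 to 116 per tissue library. Itgb7, a β partner of α4 in lymphocytes, was lower in SLG and SMG organoids (log2 fold changes −1.90 ± 0.37 and −2.22 ± 0.42). Its levels were 0.0570 to 0.433 CPM in organoids and 0.565 to 1.78 CPM in tissue. Itgb2, the β2 partner of αL, αM and αX, had 1.67 and 0.671 CPM in PG, 0.0859 and 0.140 CPM in SLG and 0.475 and 0.561 CPM in SMG organoids. In tissue it had 5.65 and 3.08 CPM in PG, 2.84 and 2.97 CPM in SLG and 6.33 and 6.64 CPM in SMG. It was lower by 3.61-fold in PG, 24.6-fold in SLG and 12.5-fold in SMG (log2 fold change −3.65 ± 0.41, edgeR adjusted p = 3.73e-07). The PG value was −2.66 on the log2 scale without replicate 1 of PG organoids, and −1.85 with it. Itgam, the αM subunit of myeloid cells, did not follow them. It had 9.27 and 4.61 CPM in PG, 0.282 and 0.572 CPM in SLG and 2.77 and 2.36 CPM in SMG organoids. Tissue libraries had 2.44 and 2.21 CPM in PG, 3.92 and 2.997 CPM in SLG and 4.12 and 3.15 CPM in SMG. It was higher in PG organoids (log2 fold change 1.62 ± 0.34, edgeR adjusted p = 0.000332, and 1.03 without replicate 1 of PG organoids) and lower in SLG organoids (log2 fold change −2.96 ± 0.37, edgeR adjusted p = 1.75e-06, and −3.58 without replicate 2 of SLG organoids). In PG organoids the immune markers Ptprc, Cd3e and Adgre1 were at 0 and the summed immune list stood at 3.34 to 5.62 CPM, against 82.6 to 92.8 CPM in PG tissue. Most of the organoid sum was Cd68, at 5.12 and 2.61 CPM in PG organoids and 8.77 and 9.14 CPM in PG tissue. The part of immune cells was not tested.

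Lama2 had 0 counts in 7 of the 8 organoid libraries and 7 in the other, against 169 to 283 counts in tissue, where it had 10.9 and 12.7 CPM in PG, 6.57 and 4.15 CPM in SLG and 16.4 and 16.6 CPM in SMG tissue. It was at least 136-fold lower in SLG and 394-fold lower in SMG organoids. Lamc3, a γ chain outside the main epithelial trimers, had 0 to 10 counts per organoid library. The glands themselves had 12.7 and 10.5 CPM in PG, 4.21 and 2.97 CPM in SLG and 10.9 and 12.9 CPM in SMG. It was at least 283-fold lower in SMG organoids. Itgb3, the β3 subunit of platelets and osteoclasts, had 0 to 15 counts per organoid library and 15 to 317 per tissue library. The 9 members with a 0 in some library (Itga11, Itgb3, Itga4, Itgae, Itgal, Itgax, Lama1, Lama2 and Lamc3) were left out of the tests above. With no filter, 7 of them were called lower in PG, 7 in SLG and 9 in SMG organoids, and 0 higher. That direction follows largely from their choice by a count of 0, which fell mostly in organoid libraries. It was not counted over genes chosen in the same way. Lama1, the embryonic α chain, had at most 45 counts in any library, and Itgae, the αE receptor for E-cadherin, at most 28. Myoepithelial markers summed to 167 to 222 CPM in PG, 69.8 to 74.5 CPM in SLG and 1.76 to 2.27 CPM in SMG organoids, against 251 to 263 CPM in PG, 1043 to 1124 CPM in SLG and 568 to 600.3 CPM in SMG tissue. Nerve and glia markers summed to 4.59 to 31.2 CPM in organoids and 76.2 to 374 CPM in tissue. Fibroblast, endothelial and immune marker sums were lower in organoids too, with Col3a1, Lum, Dpt, Kdr, Tie1, Emcn and Cldn5 at 0 in every organoid library. Their part was not tested.

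**Figure D4:**
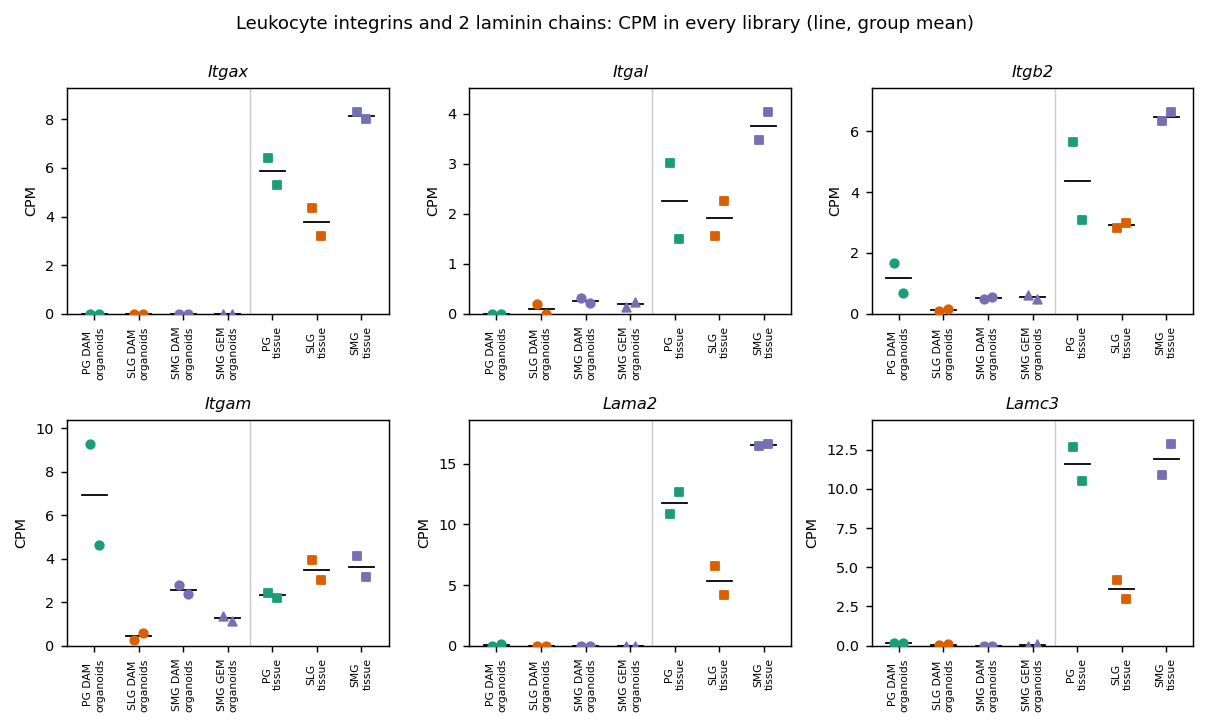
CPM (linear scale from 0) of 4 leukocyte integrins and of Lama2 and Lamc3 in each library, circles for DAM organoids, triangles for GEM organoids, squares for tissue, lines at group means. Itgax, Lama2 and Lamc3 lie at or near 0 in all 8 organoid libraries, and Itgam reaches 9.27 and 4.61 CPM in PG organoids.

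Between the organoids of different glands, grown in the same medium, 7, 7 and 11 of 26 members were called. PG against SLG organoids gave 6 members higher and 1 lower than in SLG (5.83% and 3.93% of all genes, 9.76% in either direction). PG against SMG organoids gave 4 higher and 3 lower (9.16% and 5.55%, 14.7%). SLG against SMG organoids gave 2 higher and 9 lower (8.91% and 6.28%, 15.2%). The members' median log2 fold change was 0.14, 0.05 and −0.26 in these comparisons, beside −0.01, −0.0034 and −0.01 over all genes. These comparisons share groups, so their counts are not independent of each other. The called members were α subunits with different ligands together with Itgb2, Itgb8 and Lamb1, and Itgb1, Itga6, Itgb4, Itgav, Lama3, Lama5, Lamb2, Lamb3 and Lamc1 were called in none of the 3 comparisons.

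Itga8, whose product pairs with β1 and binds nephronectin, set SMG organoids apart. It had 20.04 and 19.4 CPM in PG and 25.8 and 28.7 CPM in SLG organoids, against 157 and 176 CPM in SMG organoids. PG organoids were 8.32-fold lower than SMG organoids (log2 fold change −3.06 ± 0.09, edgeR adjusted p = 1.11e-09) and SLG organoids 5.92-fold lower (log2 fold change −2.57 ± 0.08, edgeR adjusted p = 3.74e-09), whereas PG and SLG organoids differed by −0.49 ± 0.08 on the log2 scale and were not called. SMG organoids in GEM were higher still, at 253 and 231 CPM. In tissue the gene had 4.68 and 3.65 CPM in PG, 11.8 and 11.8 CPM in SLG and 15.3 and 14.9 CPM in SMG glands, so every organoid library stood above every tissue library. The study proposes Itga8 as a marker of SMG organoids from these same libraries, so its level there is not independent evidence. The study also measured Itga8 by qRT-PCR, comparing SMG with PG and with SLG organoids, which is separate from the counts used here. The start of Itga8 lies inside the lncRNA gene E030013I19Rik, which had 898 and 977 counts in SMG organoids, against 48 and 49 in PG and 66 and 95 in SLG organoids. The sources used here do not say whether reads were counted by strand, and without strand reads of overlapping genes cannot be told apart. Npnt, the gene of nephronectin, had 2.45 and 1.98 CPM in PG and 2.32 and 2.18 CPM in SLG organoids, against 0.349 and 0.140 CPM in SMG organoids.

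Itga2 set PG organoids apart. At the levels given above, PG organoids were 9.38-fold above SLG organoids (log2 fold change 3.23 ± 0.26, edgeR adjusted p = 3.34e-05) and 4.54-fold above SMG organoids (log2 fold change 2.18 ± 0.24, edgeR adjusted p = 0.00016), with no overlap. The promoters of Itga2 (chr13:114932051-114932350, minus strand) and Itga8 (chr2:12301895-12302194, minus strand) are shown because the differences of PG and SMG organoids turn on these members, with the same span, source and capitals as above.
Itga2: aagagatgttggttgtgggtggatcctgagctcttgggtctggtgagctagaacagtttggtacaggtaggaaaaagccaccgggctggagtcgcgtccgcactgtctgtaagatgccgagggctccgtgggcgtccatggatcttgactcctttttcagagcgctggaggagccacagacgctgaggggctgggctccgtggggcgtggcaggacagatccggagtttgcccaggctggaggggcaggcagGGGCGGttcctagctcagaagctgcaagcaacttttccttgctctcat
Itga8: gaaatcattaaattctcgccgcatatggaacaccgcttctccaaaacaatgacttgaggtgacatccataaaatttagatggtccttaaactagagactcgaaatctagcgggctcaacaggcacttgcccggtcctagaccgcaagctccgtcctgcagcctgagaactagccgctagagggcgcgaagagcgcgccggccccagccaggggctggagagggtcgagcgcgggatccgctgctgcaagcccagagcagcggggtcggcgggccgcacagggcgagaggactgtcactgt
The Itga2 window held 1 match to the GC box, just after the start, and the Itga8 window no match to any of the 3 motifs.

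Several further members set the glands apart. Lamb1 had 70.4 and 71.2 CPM in PG and 21.2 and 19.8 CPM in SLG organoids, against 113 and 113 CPM in SMG organoids. SLG organoids were 5.34-fold below SMG (log2 fold change −2.42 ± 0.08, edgeR adjusted p = 3.66e-09) while PG organoids were 3.40-fold above SLG (log2 fold change 1.76 ± 0.08, edgeR adjusted p = 4.37e-08). Itgb8 was highest in SLG organoids, 3.96-fold above SMG (log2 fold change 1.99 ± 0.16, edgeR adjusted p = 2.18e-06) and with PG below SLG by 3.56-fold. Itga3 was lowest in SLG organoids, 2.71-fold below SMG (log2 fold change −1.44 ± 0.10, edgeR adjusted p = 7.5e-07), and PG organoids stood 2.10-fold above SLG. Itga5 in PG organoids was 3.75-fold above SMG organoids (log2 fold change 1.91 ± 0.17, edgeR adjusted p = 4.04e-06). Itga9, the α9 receptor for tenascin and VCAM1, had 3.32 and 2.52 CPM in PG and 4.05 and 3.83 CPM in SLG organoids, against 8.69 and 9.50 CPM in SMG organoids. It was lower by 3.07-fold in PG and 2.24-fold in SLG. Itgam was 16.04-fold higher in PG than in SLG organoids (log2 fold change 4.004 ± 0.40, edgeR adjusted p = 3.23e-05, and 4.61 without replicate 2 of SLG organoids) and 2.74-fold higher in PG than in SMG organoids, where the call was lost without replicate 1 of PG organoids (0.88) or replicate 2 of SMG organoids (1.34). The remaining calls were of members under 5 CPM. Itga7 and Itgb2 were higher in PG than SLG organoids and lower in SLG than SMG organoids, and Itgb2 was higher in PG than SMG organoids. Itga2b was lower in PG and SLG than SMG organoids, and Itga10 was higher in SLG than SMG organoids. Itga2 and Itgam were lower in SLG than in SMG organoids as well (−1.05 ± 0.25 and −2.55 ± 0.39), Itgam at −3.16 without replicate 2 of SLG organoids. Several of these calls rested on single libraries. The value of Itgb2 in PG against SLG organoids was 3.35 and 2.59 without replicate 1 of PG organoids. Itgb2 in PG against SMG organoids was not called without either SMG library or replicate 1 of PG organoids (1.07, 1.32 and 0.40), and in SLG against SMG without replicate 1 of SLG organoids (−1.86). Itga2 in SLG against SMG organoids was not called without that library (−1.02) or replicate 2 of SMG organoids (−1.005). With log2(TPM + 1), calls in SLG against SMG organoids were lost for Itga2 (−0.47), Itga2b (−0.67), Itgam (−0.73) and Itga9 (−0.57), and in PG against SMG organoids for Itga2b (−0.84) and Itga9 (−0.74). Itga10 lost its call with any of its 4 libraries left out, with values between 0.92 and 1.18. Itga7 stayed called in SLG against SMG organoids, at −1.48 without replicate 1 of SMG organoids and −2.11 with all libraries. Myoepithelial markers differed between these organoids, with sums of 167 to 222 CPM in PG, 69.8 to 74.5 CPM in SLG and 1.76 to 2.27 CPM in SMG. Basal duct markers summed to 7855 to 8574 CPM in PG, 3851 to 3853 CPM in SLG and 7190 to 7922 CPM in SMG organoids. Luminal duct markers summed to 3522 to 4078 CPM in PG, 7119 to 7225 CPM in SLG and 3214 to 3545 CPM in SMG organoids. Their part in the differences was not tested.

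**Figure D5:**
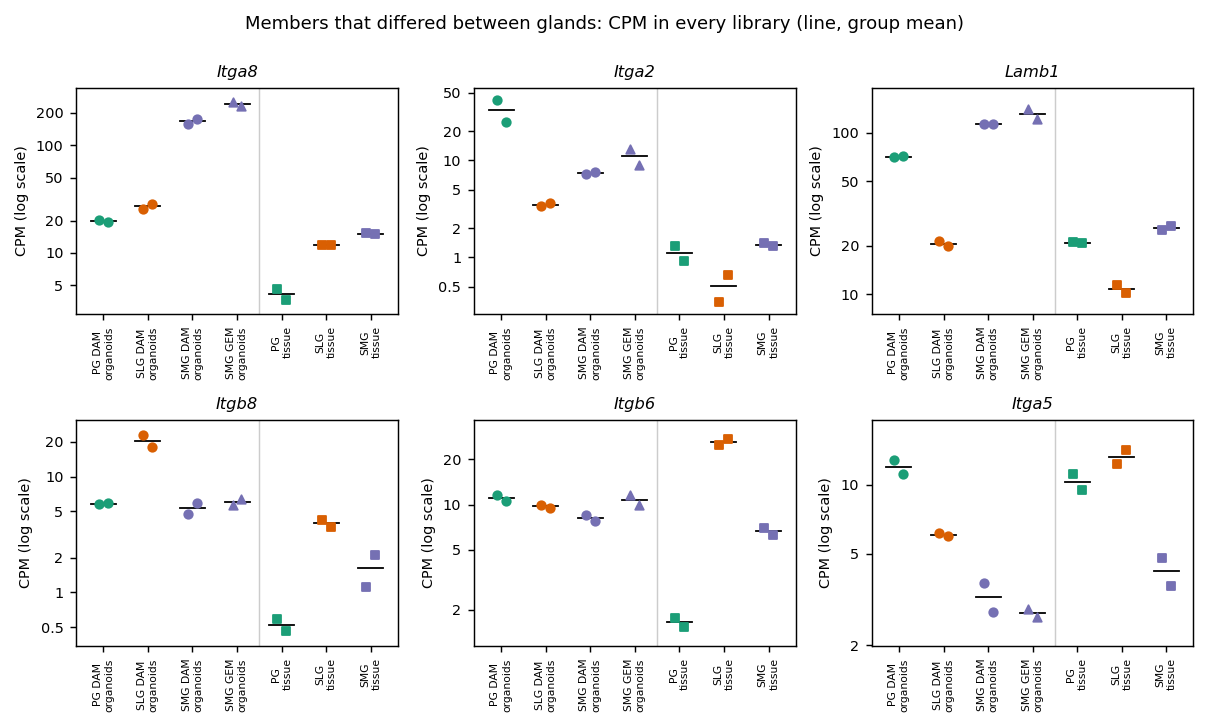
CPM (log scale) of 6 members that differed between glands in each library, circles for DAM organoids, triangles for GEM organoids, squares for tissue, lines at group means. Itga8 reaches 157 and 176 CPM in SMG organoids, Itga2 peaks in PG and Itgb8 in SLG organoids, and the wide spread of Itgb6 in tissue is missing in organoids.

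In gland tissue 32 members were tested, and 14, 9 and 15 were called. PG against SLG tissue gave 5 members higher and 9 lower (15.7% and 12.6% of all genes, 28.3% in either direction). PG against SMG tissue gave 5 higher and 4 lower (6.71% and 6.78%, 13.5%). SLG against SMG tissue gave 6 higher and 9 lower (8.38% and 11.9%, 20.3%). The members' median log2 fold change was −0.32, −0.28 and −0.02, beside 0.02, 0.0042 and 0.01 over all genes. These directions were relative to the common scale. Totals of the tested genes moved the all-gene median to −0.90, 0.18 and 1.10, and log2(TPM + 1) to −0.81, 0.40 and 1.23. The share of all calls that were higher was 55.4%, 49.7% and 41.3% on the common scale and 10.2%, 65.3% and 96.3% with totals.

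Itgb6 had the largest log2 fold change of the members between tissues. It had 1.75 and 1.54 CPM in PG and 24.9 and 27.1 CPM in SLG, against 6.97 and 6.30 CPM in SMG tissue. It was 16.4-fold lower in PG than SLG (log2 fold change −4.03 ± 0.19, edgeR adjusted p = 2.94e-09) and 4.08-fold higher in SLG than SMG (log2 fold change 2.03 ± 0.16, edgeR adjusted p = 6.2e-07). Itgb3 had 1.85 and 0.771 CPM in PG and 6.15 and 7.79 CPM in SLG, against 1.10 and 1.64 CPM in SMG tissue. It was higher in SLG than SMG by 5.32-fold (log2 fold change 2.41 ± 0.39, edgeR adjusted p = 0.000249). Lama5, at the levels given above, was 4.28-fold higher in SLG than SMG tissue (log2 fold change 2.10 ± 0.09, edgeR adjusted p = 1.81e-09), and lower in PG than SLG tissue by 2.24-fold. Lamb2 had 53.4 and 60.6 CPM in SLG and 27.1 and 29.3 CPM in SMG tissue (log2 fold change 1.08 ± 0.12, edgeR adjusted p = 1.4e-05). Itga5 was higher in SLG and in PG than in SMG tissue by 3.26-fold and 2.43-fold. Members lower in PG than SLG tissue also included Itgb8 (−2.95), Itga8 (−1.56), Itgav (−1.44), Itgb1 (−1.24), Lama3 (−1.19) and Itga1 (−1.08), all as log2 fold changes. Itga8 was also lower in PG than SMG tissue (−1.85 ± 0.19), and SLG and SMG tissue differed by −0.30 ± 0.17 in that gene, which was not called and turned to 0.80 with totals.

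Other members were lowest in SLG tissue, among them the stromal laminins. Lama2 in SLG tissue was 2.98-fold below SMG tissue (log2 fold change −1.58 ± 0.21, edgeR adjusted p = 5.84e-05) and Lamc3 3.19-fold below (log2 fold change −1.68 ± 0.22, edgeR adjusted p = 4.72e-05). PG tissue stood above SLG tissue in both (1.09 and 1.65). Fibroblast markers summed to 445 to 449 CPM in PG, 202 to 238 CPM in SLG and 624 to 686 CPM in SMG tissue. Their part was not tested. Itgax and Itgb2 were lower in SLG than SMG tissue (−1.06 ± 0.24 and −1.10 ± 0.30) beside immune marker sums of 56.8 to 57.2 CPM in SLG and 103 to 122 CPM in SMG tissue. With totals these values turned to 0.03 and 0.0017. Lamb1 in SLG tissue, at 11.4 and 10.1 CPM, was 2.29-fold below the 24.98 and 26.4 CPM of SMG tissue, and turned to 0.12 with log2(TPM + 1). Itga4, Itga2 and Itga10 were lower in SLG than SMG tissue too (−1.50, −1.32 and −1.38). Itga10 was highest in PG tissue, 5.33-fold above SLG (log2 fold change 2.42 ± 0.24, edgeR adjusted p = 2.99e-06) and 2.05-fold above SMG, and Itga2b was higher in PG than in SLG and SMG tissue (2.19 and 1.32). Itga7 was higher in PG than SLG tissue (log2 fold change 2.68 ± 0.40, edgeR adjusted p = 8.78e-05) and than SMG tissue (log2 fold change 1.22 ± 0.38, edgeR adjusted p = 0.022). Without the PG library that held skeletal muscle RNA these values were 2.46 and 0.996, the second no longer called. The remaining calls were Itga7 and Itgb8 in SLG against SMG (−1.46 and 1.36), Itgb3 in PG against SLG (−2.46), and Itga3, Itga4, Itgb6 and Itgb8 in PG against SMG tissue (1.005, −1.57, −2.005 and −1.59). Itgb6 was −0.21 with log2(TPM + 1) and −0.90 with log2(TPM + 0.1), neither called. Totals ended the calls of Itga2 (−0.21), Itga4 (−0.40), Itga7 (−0.38), Itga10 (−0.30), Lama2 (−0.49), Lamb1 (−0.10) and Lamc3 (−0.59) in SLG against SMG tissue, and of Lama2 (0.18) and Lamc3 (0.74) in PG against SLG tissue. Itga3 lay at the threshold and lost its call with DESeq2 (0.997). Single libraries decided several of these tissue calls. In PG against SMG tissue, calls were lost for Itga3 (0.92), Itga7 (0.88) and Itga2b (1.47) without replicate 1 of SMG tissue. They were lost for Itga2b (1.19), Itga10 (0.90) and Itgb8 (−1.07) without replicate 2 of SMG tissue. Without a PG library they were lost for Itga10 (replicate 1, 0.86), Itga3 (replicate 2, 0.99) and Itgb8 (replicate 2, −1.43). In SLG against SMG tissue, Itga2 was not called without either SMG library or replicate 1 of SLG tissue (−1.26, −1.37 and −0.95). There, Itgb8 was not called without replicate 1 of SMG tissue (0.95) nor Itga7 and Itgb2 without replicate 2 of SMG tissue (−1.05 and −1.06). The same held for Itga7, Itgax and Lamb2 without replicate 2 of SLG tissue (−1.01, −0.84 and 0.98). In PG against SLG tissue, Lama2 was not called without replicate 2 of PG (0.97) or of SLG tissue (0.78), and Itgb3 stayed called at −3.23 without replicate 1 of PG tissue.

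Whether a gland difference in organoids matched that in tissue was tested by an interaction term over the 12 DAM and tissue libraries. A positive value means that the difference was more positive in organoids than in tissue, in a fit on 1 scale for all 12 libraries. In PG against SLG 12 of 26 members had a higher and 3 a lower difference in organoids (13.5% and 14.1% of all genes, 27.6% in either direction). In PG against SMG these were 6 and 6 members (15.0% and 10.9%, 25.9%). In SLG against SMG they were 1 and 8 (13.8% and 9.42%, 23.2%). Itgb6 was 0.16 in PG against SLG organoids and −4.03 in PG against SLG tissue, a change of 4.16 ± 0.22 (edgeR adjusted p = 2.09e-10). Itga8 was −2.57 in SLG against SMG organoids and −0.30 in SLG against SMG tissue, a change of −2.19 ± 0.15 (edgeR adjusted p = 2.91e-09). Lama5 was −0.29 in organoids and 2.10 in tissue for the same glands, a change of −2.31 ± 0.16 (edgeR adjusted p = 3.41e-09). Itgam changed by 4.58 ± 0.50 in PG against SLG (edgeR adjusted p = 1.07e-06). A gland difference was called in the same direction in organoids and tissue for 2 members in PG against SLG (Itga7 and Itgb8), for 2 in PG against SMG (Itga5 and Itga8) and for 5 in SLG against SMG (Itga2, Itga7, Itgb2, Lamb1 and Itgb8), against 2.64%, 1.52% and 2.63% of the 14323 genes tested in both. It was called in opposite directions for Itga2b in PG against SMG (287 of 14323 genes) and for Itga10 in SLG against SMG (1.85%), and for no member in PG against SLG (0.866%).

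The comparison of SMG organoids in DAM with those in GEM asked what the differentiation medium changed. Of 26 tested members, 1 was called and was higher in DAM, against 1.81% higher and 1.15% lower of all genes (2.96% in either direction). That member was Itgb7, the β7 subunit of gut-homing lymphocytes, with 25 and 17 counts in DAM and 6 and 4 counts in GEM organoids (log2 fold change 1.98 ± 0.48, edgeR adjusted p = 0.0168). It was not called by DESeq2 (1.99), with no filter (1.984) or with only the groups compared (1.985). Nor was it called without replicate 1 of DAM organoids (1.69) or without replicate 3 of GEM organoids (1.68). DESeq2 and the fit of only the groups compared each called 1 member too, but not Itgb7. Smaller differences also passed the p threshold. Of the 26, 9 members passed the adjusted p threshold below the fold threshold with lower levels in DAM, as did 11.0% of all genes (4.88% with higher levels), and the members' median was −0.18 beside 0.01 over all genes. Itgb4 had 669.7 and 551 CPM in DAM and 1007 and 894 CPM in GEM organoids (log2 fold change −0.59 ± 0.09, edgeR adjusted p = 0.00201). Itga3 had 525 and 430 CPM in DAM and 801 and 728 CPM in GEM organoids (−0.64 ± 0.10). Lama4 had 9.21 and 9.50 CPM in DAM and 16.9 and 14.9 CPM in GEM organoids (−0.72 ± 0.11). The other members of this kind were Itga8 (−0.49), Lama5 (−0.51), Lamc1 (−0.40), Itgav (−0.40), Lama3 (−0.37) and Itga6 (−0.36). In each of these 9 the DAM and GEM libraries did not overlap. That follows largely from their choice by p, and it was not counted over all genes. Itgb1, Lamb1 and Lamb3 differed by −0.17, −0.16 and −0.09 and did not pass the p threshold. The sources differ on the days of culture of these groups, and a part of culture time was not tested.

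Genes that work with these members were read from lists of their own. All 6 hemidesmosome partners were higher in the organoids of all 3 glands, beside the 11.8% of genes given above, with medians of 3.39 in PG, 2.98 in SLG and 3.56 in SMG. Col17a1, collagen XVII of the hemidesmosome, had 708 and 629 CPM in PG, 477 and 479 CPM in SLG and 983 and 873 CPM in SMG organoids. The same glands had 22.6 and 25.3 CPM in PG, 27.1 and 31.03 CPM in SLG and 16.7 and 20.5 CPM in SMG tissue, and the groups did not overlap. Krt5 and Krt14, the basal keratins of the list, rose by 7.57 and 6.45 on the log2 scale in PG, and Cd151, a tetraspanin that binds laminin receptors, by 1.93. Of 18 basement membrane partners, 14 were tested. Of these, 9 were higher and 1 lower in PG organoids, 11 higher and 2 lower in SMG organoids, and 10 higher in SLG organoids. Of all genes 25.1%, 22.9% and 20.6% were higher there. Their medians were 1.85, 2.01 and 1.74 in that order of glands. The rest, Nid1, Nid2, Frem2 and Col4a6, had a 0 in some library and were not tested. Nid1 had 0 to 5.91 CPM in organoids and 15.6 to 36.1 CPM in tissue, and Nid2 0 to 0.663 and 8.71 to 12.7 CPM. Frem2 had 0.565 and 0.683 CPM in SLG organoids and 10.3 and 11.5 CPM in SLG tissue. Col4a6 had 47.6 to 56.7 CPM in PG and SLG organoids, 0 in SMG organoids and 2.33 to 6.44 CPM in tissue. Among the tested collagen IV chains, Col4a2 stood lower in PG organoids (27.5 and 40.5 CPM) than in PG tissue (76.7 and 75.5 CPM). In SMG, Col4a2 had 11.5 and 11.5 CPM in organoids and 55.1 and 64.3 CPM in tissue. Col4a1 there had 40.9 and 43.7 CPM in organoids and 110.8 and 101.9 CPM in tissue. Col4a5 stood higher in organoids of every gland. Sdc1, the epithelial syndecan, rose in PG (5.33 ± 0.09) and averaged 507 CPM in organoids and 13.01 CPM in tissue there. Bcam, a receptor for laminin α5, rose by 2.41, 2.74 and 2.56 in PG, SLG and SMG. Between DAM and GEM organoids the medians of the lists were −0.02 and −0.17. Krt5 and Krt14 are also among the basal duct markers used above.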

How the data were processed

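RNA was read from 14 libraries, 7 groups of 2, with 56383651 to 71367044 counts each. Per the submitters' processing notes, HISAT2, StringTie, DESeq2 and GRCm38 were used, with no tool version. The deposited read counts per gene are whole numbers that the authors had not normalised. The deposited TPM values, scaled by the authors for transcript length and library total, were used for 12 libraries, and 16 other columns (14 of FPKM and 2 of TPM) were not used. Columns of the authors' own comparisons hold fold changes and p-values and were not used. The labels name a stranded total RNA kit and the methods of the study an mRNA kit. Columns numbered 3 of PG organoids and of GEM organoids were placed by the group in their name. No label gives a batch.

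Counts were fitted in edgeR 4.0.16 (R 4.3.3) by the quasi-likelihood test on TMM factors, with Benjamini-Hochberg adjustment over all tested genes. A call needs an adjusted p under 0.05 and a change over 1 on the log2 scale, and genes at 0 in any library of the model were left out, after the study's own practice. The same test on counts simulated from these libraries, with 200 genes changed, called 38%, 88%, 86% and 94% of genes changed 2-, 3-, 4- and 8-fold between DAM and GEM organoids (9 false calls over 16260 genes). For PG against SLG tissue it called 30%, 86%, 74% and 86% (6 false calls over 16293 genes), and for SMG organoids against SMG tissue 52%, 96%, 94% and 96% (3 false calls over 14459 genes). Apart from the 200 genes, each simulated gene had a common mean over all libraries of its model. In the data 46.1% of genes were called in SMG organoids against SMG tissue, so these rates need not hold there. Alternatives were RLE factors, totals of tested genes, filterByExpr, no filter, only the groups compared, a replicate block, each library left out, DESeq2 1.42.0, and limma 3.58.1 on log2(TPM + 1) and log2(TPM + 0.1) for genes with a mean of at least 1 TPM.

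Values of every library are given for called members with a mean of at least 5 CPM (up to 6 in each direction), for Itga8 and for members at 0, and other lists give up to 4 genes with the smallest adjusted p. Npnt and some members at lower levels fall outside this rule and were chosen after their values were seen. The members and lists were chosen with earlier results of these data known. Joins ran in pandas 2.3.3 and numpy 2.4.6 under Python 3.11.15, and plots in matplotlib 3.10.9. Limits from a count of 0 cover counting error only.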

Additional observations from a re-analysis of the deposited data

Results flagged for a closer look

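For the results below, the gland difference in organoids departed from the gland difference in tissue by a test of the interaction itself (edgeR adjusted p under 0.05 and a size over 1). Values are the organoid difference minus the tissue difference on the log2 scale. Groups of 2 libraries are too small to check for a sample that stands apart.

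In PG against SLG, the difference was higher in organoids for Itgb6 (4.16), Itgam (4.58), Itgb2 (2.77), Itga2 (2.15), Lama3 (1.80), Itgb1 (1.59), Itgav (1.54), Itga5 (1.34), Itga6 (1.11), Itgb8 (1.08), Lama4 (1.05) and Itga8 (1.02). It was lower for Itga10 (−2.92), Itga2b (−2.51) and Itgb4 (−1.03). In PG against SMG it was higher for Itgb6 (2.50), Itga2 (2.48), Itgam (2.14), Itgb2 (1.79), Itgb8 (1.78) and Lama3 (1.02), and lower for Itga2b (−3.10), Itga9 (−2.22), Lama5 (−1.51), Itga3 (−1.33), Itga8 (−1.17) and Itgb4 (−1.16). In SLG against SMG it was higher for Itga10 (2.50) and lower for Itgam (−2.44), Lama5 (−2.31), Itga8 (−2.19), Itga9 (−1.95), Itga3 (−1.88), Itgb6 (−1.66), Lama4 (−1.32) and Lamb1 (−1.14).

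Single libraries carried some of these calls. In PG against SLG, without replicate 2 of SLG tissue the calls of Itga2 (1.56), Itga6 (0.98) and Lama4 (0.82) were lost. Lama4 was also not called without replicate 2 of SLG organoids (0.99) or of PG tissue (0.87). Itgb4 was not called without replicate 3 of PG organoids (−0.99) or replicate 1 of SLG tissue (−0.97). Itga8 was not called without replicate 1 of SLG organoids (0.96) or replicate 2 of PG tissue (0.85). Itgb8 was not called without replicate 3 of PG organoids (1.08), replicate 2 of SLG organoids (0.94), either PG tissue library (1.27 and 0.93) or replicate 1 of SLG tissue (1.01). In PG against SMG, Lama3 was not called without replicate 1 of PG organoids (0.88), replicate 2 of SMG organoids (0.95), replicate 2 of PG tissue (0.92) or replicate 1 of SMG tissue (0.96). There, Itgb2 was not called without replicate 1 of PG organoids (0.97) and Itga8 not without replicate 1 of PG tissue (−0.98). Leaving out replicate 1 of PG organoids also moved Itgam in PG against SMG to 1.53 and Itgb2 in PG against SLG to 1.997, both still called. Leaving out replicate 2 of SLG organoids moved Itgam to 5.18 in PG against SLG and −3.08 in SLG against SMG, both still called. Other settings ended further calls. In PG against SMG, Lama3 was 0.99 with RLE factors, 0.99 with filterByExpr, 0.99 with no filter, 0.99 with DESeq2, 0.95 with only the groups compared and 0.01 with log2(TPM + 1), and was called in none of these. With log2(TPM + 1), Itgb6 (0.81) and Itgb8 (0.36) in PG against SMG and Itgb4 (−0.13) and Itga8 (0.38) in PG against SLG were not called either.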

How the results depend on the processing

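Over 161 called member results and 2053 alternative values, 1914 kept direction and call, 123 lost the call and 16 changed sign. A call was lost in some alternative by 50 of the results, and by 31 with 1 library left out. Calls lost numbered 3 with RLE factors, 17 with totals, 5 with filterByExpr, 6 with no filter, 6 with DESeq2, 4 with only the groups compared, 15 with log2(TPM + 1) and 7 with log2(TPM + 0.1). In SLG against SMG tissue, totals gave Itgax 0.028, Itgb2 0.0017 and Itga8 0.80, and Lamb1 was 0.12 and 0.22 with TPM and pseudocounts of 1 and 0.1. With the same pair of pseudocounts, Itga1 was 0.97 and 1.51 in PG organoids against PG tissue. In SLG organoids against SLG tissue, Itga5 was 0.59 and 0.81, Itgb6 0.44 and 0.54, Lama4 0.56 and 0.84 and Itga1 0.12 and 0.15. The Itgb8 interaction of PG against SLG was −0.92 with log2(TPM + 1). Relative to the all-gene median of the same fit, all of these kept the sign of the edgeR value except that last one.

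The count of called members between DAM and GEM organoids (1) was 0 with no filter in edgeR, where 5847 of 25031 genes had an unadjusted p under 0.05, and 0 with limma on TPM at either pseudocount (5723 and 5794 of 13471 genes). With log2(TPM + 1) it was 4 in PG against SMG organoids, 5 in SLG against SMG organoids and 1 in PG against SMG tissue (4 with a pseudocount of 0.1). SMG organoids against SMG tissue gave 30 with filterByExpr and 30 with no filter, where more members were tested. The interaction gave 5 and 7 in PG against SMG and 14 and 16 in SLG against SMG with TPM at pseudocounts of 1 and 0.1. With each library left out in turn, counts ran over 0 to 1 between DAM and GEM organoids, 7 to 9, 5 to 7 and 8 to 12 in organoids (PG against SLG, PG against SMG, SLG against SMG), 13 to 14, 6 to 10 and 12 to 16 in tissue in the same order, 20 to 21, 18 to 20 and 18 to 21 in organoids against tissue of PG, SLG and SMG, and 12 to 15, 10 to 13 and 9 to 11 for the interactions.

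Replicate numbers showed no strong pairing of the samples: differences between numbers 1 and 2 correlated between groups at −0.08 at the most in size, over 14323 genes. PG organoids and GEM organoids, which lack a number 2, were left out of this. Such correlations cannot exclude that libraries shared a mouse or a batch. With the replicate block, fitted where both groups carry the same numbers, 97 values kept their calls, and the count was 11 in SLG against SMG organoids, 20 in SMG and 19 in SLG organoids against tissue and 10 in the interaction of SLG against SMG. In tissue, the blocked counts were 14, 9 and 15. With 2 libraries a group and 3 counts worth up to 0.205 CPM in tissue, differences of members under about 1 CPM are the least certain.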

Other observations

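Integrin ligands other than laminins also differed between organoids and glands. Of 18 such genes 13 were tested, and edgeR called 8 higher and 3 lower in PG organoids, 7 and 5 in SLG, and 6 and 6 in SMG (medians 2.18, 2.29 and 0.52 on the log2 scale), beside 25.1% higher and 22.1% lower of all genes in PG, 20.6% and 18.1% in SLG, and 22.9% and 23.2% in SMG. Tnc, tenascin C of remodelling matrix, averaged 292.5 CPM in PG, 969 CPM in SLG and 607 CPM in SMG organoids, against 1.36, 37.5 and 3.23 CPM in PG, SLG and SMG tissue. Its log2 fold changes were 7.80 ± 0.17, 4.75 ± 0.12 and 7.53 ± 0.16. Thbs1, thrombospondin 1, rose by 4.26, 4.75 and 3.71. Fn1, fibronectin, averaged 147 CPM in PG and 149 CPM in SLG organoids, against 12.3 CPM in SMG organoids (log2 fold changes 3.60 ± 0.08 and 3.64 ± 0.08). It was lower in DAM than in GEM SMG organoids (−1.18 ± 0.07, edgeR adjusted p = 5.06e-06). Vcam1, a ligand of α4 and α9 integrins, averaged 10.8 CPM in PG and 1.26 CPM in SLG organoids, against 0.511 CPM in SMG organoids. Vwf, the von Willebrand factor, averaged 2.79 CPM in SLG organoids and 302 CPM in SLG tissue, against 7.36 CPM in PG and 7.88 CPM in SMG tissue.

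Cytoplasmic proteins that join integrins to actin were mixed. Of 24 genes 22 were tested, with 8 higher and 4 lower in PG organoids, 6 and 3 in SLG, and 12 and 4 in SMG (medians 0.68, 0.44 and 1.09). The PG and SLG counts lie near the shares of all genes just given. Flna, filamin A, rose by 3.44, 2.18 and 2.25 on the log2 scale and Tns4, a tensin of epithelia, by 3.08, 2.18 and 2.66. Tns1, tensin 1, was lower in SLG and SMG organoids (−3.08 ± 0.10 and −3.39 ± 0.10), as was Fermt2, kindlin 2 (−1.94 ± 0.08 and −2.31 ± 0.09). Both stood lower in PG organoids too. Tns1 had 42.1 and 35.9 CPM in PG organoids and 121.7 and 119.0 CPM in PG tissue. Fermt2 had 27.7 and 30.25 CPM in PG organoids and 67.5 and 65.1 CPM in PG tissue. Among organoids, Tns1 averaged 39.0 CPM in PG and 26.4 CPM in SLG, against 8.41 CPM in SMG.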
